A study of Mus musculus with 20 samples.

Results

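The livers described here are the resting livers of the series, removed at surgery before any regeneration, from 5 mice with a hepatocyte-specific knockout of Eed and from 5 wild-type mice, and they make up 10 of the 20 samples. Members were chosen by their labels alone: every baseline sample of the knockout line EedHepKO (replicates 7, 8, 10, 11 and 12, written KO) and every baseline sample of C57BL/6J wild type (replicates 1 to 5, written WT). All 10 mice were male and 2 months old, and the tissue was liver lobes 1, 2 and 3 as removed at partial hepatectomy (PHx). The other 10 samples are the remaining lobes of the same mice, collected 30, 40 or 48 h later, and they enter here only where the spread between samples is estimated and in 1 comparison near the end. KO mice express Cre from an albumin promoter transgene (Alb:Cre) on Eedflox alleles, whose loxP sites flank exons 3 and 6. The deletion is therefore expected in hepatocytes, and whether other cells of the liver carry it was not tested. The WT mice were bought as C57BL/6J and carry neither Cre nor loxP alleles, so genotype cannot be told apart from colony of origin. The question set by the design is how the resting liver differs in expression when hepatocytes lack PRC2 function. Each replicate is a separate mouse.

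EED is the subunit of polycomb repressive complex 2 (PRC2) that binds trimethylated lysine of histone H3 and stimulates the methyltransferase EZH1 or EZH2, which needs EED and SUZ12 to act. The mark it places on lysine 27 of histone H3 keeps developmental regulators, among them the Hox genes, silent in tissues where they have no role. In liver the mark is also found at genes of fetal life, of the cell cycle inhibitor locus Cdkn2a and at genes that differ between the sexes.

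Total counts ran from 22978158 to 27679930 in WT and from 21675991 to 27294004 in KO. Levels are given as CPM: a count divided by the library size after TMM scaling, times 1000000. In the 10 libraries the first principal component held 61.6% of the variance and separated the genotypes without overlap, and the second, with 10.01%, spread the KO mice from 42.7 in replicate 8 to -53.8 in replicate 12. WT replicate 1 stood apart on the third (6.47%), with Gm42418, a transcript that overlaps ribosomal RNA, at 11.6% of its counts against 0.342% to 0.621% in the other WT and 0.103% to 2.22% in KO. It also had 34 CPM of the clock output gene Dbp, against 0.321 to 0.734 CPM in the other WT, 8.40 CPM in KO replicate 12 and 0.763 to 1.72 CPM in the other KO. Nnt, which carries a deletion in the C57BL/6J substrain, was uneven as well: WT had 45.3, 38.7, 150, 145 and 134 CPM in replicates 1 to 5, and KO had 35.2, 30.4, 64.4, 46.3 and 51.1 CPM in replicates 7, 8, 10, 11 and 12. Calls of named genes that were lost without 1 library are given as such, and for most gene lists the number of calls kept in all 10 leave-one-out fits is given.

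Eed RNA was lower in every KO liver. WT replicates 1 to 5 had 16.6, 17.05, 18.4, 15.3 and 16.7 CPM of Eed, and KO replicates 7, 8, 10, 11 and 12 had 6.50, 7.52, 3.83, 5.57 and 4.79 CPM. The groups did not overlap. The means were 16.8 ± 1.09 CPM (SD, n = 5) in WT and 5.64 ± 1.44 CPM (SD, n = 5) in KO, a log2 change of -1.57 ± 0.22 (SE), with an adjusted p of 6.07e-05 in edgeR's quasi-likelihood test, Benjamini-Hochberg adjusted. This is the deleted gene (ENSMUSG00000030619, mm10 chromosome 7, 89954654 to 89980983, protein coding). A gene count does not show which exons the remaining reads come from, and in bulk tissue fewer cells of a type and less RNA per cell cannot be told apart. Of the 12 genes in a list of PRC2 subunits and partners, Eed was the 1 called lower and Epop, a cofactor of the complex, the 1 called higher, from 2.85 ± 1.34 to 8.17 ± 2.97 CPM (SD, n = 5). That is 8.3% in each direction, near the 11.1% of all genes called higher and against the 4.89% called lower. The catalytic subunit genes were not called in the 20-library fit: Ezh1 had a log2 change of 0.25 ± 0.24 (SE) and Ezh2 of 0.90 ± 0.58 (SE), and Suz12, another core subunit, had 27.4 ± 3.58 CPM in WT and 21.3 ± 7.11 CPM in KO (SD, n = 5). In the fit of the 10 baseline libraries Ezh2 was called higher (adjusted p 0.0159 in edgeR's quasi-likelihood test).

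Across the 14661 genes tested, 1631 were called higher in KO (11.1%) and 717 lower (4.89%), where called means an adjusted p under 0.05 in the fit of all 20 libraries. Among the genes called, the rises were mostly larger than the falls under TMM scaling. Sizes were not compared between genes of equal level. The median log2 change was 2.05 over the genes called higher and -0.80 over those called lower, and 842 genes rose but 69 fell by at least 2 on the log2 scale. Beside these, the median over all genes tested was -0.03. Genes called higher took 0.670 ± 0.0403% of all counts in WT and 2.87 ± 0.476% in KO (SD, n = 5), and genes called lower took 21.4 ± 0.813% and 11.8 ± 1.57% (SD, n = 5). The direction followed the level of expression. Among the 4601 genes with a mean of 1 to 10 CPM, 869 were called higher and 78 lower, whereas among the 132 genes at 1000 CPM or more none was called higher and 29 were called lower. Scaled by library size alone, the 132 genes gave 8 higher and 12 lower.

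The split between rises and falls depends on the scaling. TMM scaling takes the bulk of genes as unchanged, whereas library size alone moves the median of all genes up by 0.48 on the log2 scale, so by its construction it favours rises and works against falls. Under library size alone the share of calls that were higher went from 69.5% to 96.9%. There 113 of the 717 genes called lower kept their call, as did the 1631 called higher, for which the shift is no check. Calls were also followed through the 10 fits that leave out 1 baseline mouse: 1108 of the genes called higher and 262 of those called lower kept their call in all 10. The 103 genes called lower that passed both checks are the falls kept under both scalings and without any 1 mouse. In a fit of the 10 baseline libraries alone, 13286 genes were tested, and 2846 were called higher (21.4%) and 2396 lower (18%). Separation without a test was counted as well, on TMM-scaled CPM. In 2294 of the 14661 genes (15.6%) all 5 KO libraries lay above all 5 WT libraries, and in 1794 (12.2%) all lay below. The TMM factors ran from 0.670 to 0.806 in WT and from 0.983 to 1.19 in KO, so these counts depend on the scaling too.

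**Figure D1:**
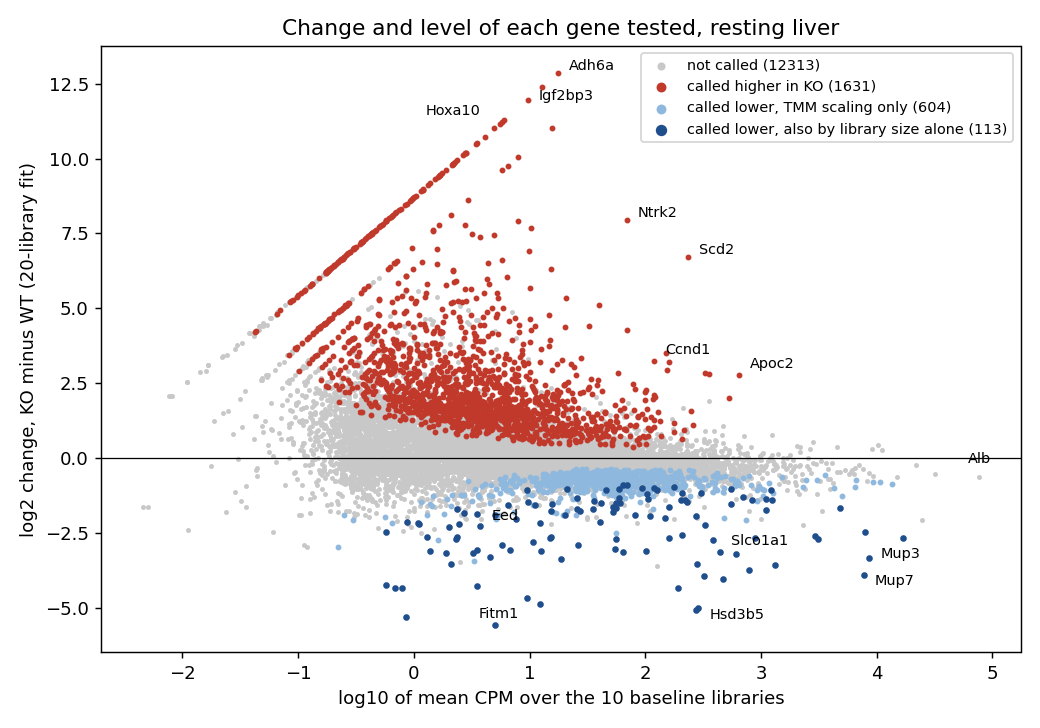
Each point is 1 of the genes tested, with the log10 of its mean CPM over the 10 baseline libraries on the x axis and its log2 change, KO minus WT, on the y axis. Red points are the 1631 genes called higher, dark blue the 113 called lower under both scalings and light blue the genes called lower under TMM scaling only. The straight upper edges are genes with 0 or a few counts in WT, whose fitted change depends on the prior count.

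A set of genes was silent in WT and expressed in every KO liver. With at most 3 counts summed over the 5 WT libraries and at least 1 CPM in each of the 5 KO libraries, 53 genes met this rule, and no gene met the reverse. Of the 53, 51 were protein coding, 38 had no count at all in WT, and all passed the test, as the rule makes likely. They lay on 17 chromosomes. Just outside the rule were 22 genes with 4 to 10 counts in WT and 34 whose lowest KO library had 0.5 to 1 CPM. KO means over the 53 ran from 1.71 to 35.3 CPM with a median of 4.33 CPM. The set held 10 Hox genes (Hoxa7, Hoxa10, Hoxa11, Hoxa13, Hoxb13, Hoxc6, Hoxc9, Hoxc10, Hoxd8 and Hoxd9) and 9 listed developmental regulators of other families, among them Pax2, Pax3, Pitx1, Tbx15, Tbx18, Irx5 and Zic1. It also held genes that are not regulators: the fetal RNA-binding protein genes Igf2bp1 and Igf2bp3, the sulfotransferase genes Sult2a1 and Sult2a2, the intestinal genes Fabp6, Mep1a and Muc13, and the squamous epithelial genes Krt4 and Sprr1a. In all, 30 of the 53 were in none of the gene lists used here.

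Adh6a, an alcohol dehydrogenase gene, had the largest fitted change of the set. It had no count in any WT library and 65.7, 57.4, 22.7, 16.04 and 14.5 CPM in KO replicates 7, 8, 10, 11 and 12. Set against a floor of 3 counts over the WT group this is at least 1201-fold higher. KO replicates 7 and 8 were the high ones. Sult2a1, a sulfotransferase gene for bile acids and steroids, was also at 0 in WT and reached 35.3, 38.6, 21.2, 4.57 and 28.9 CPM in the same order, at least 849-fold higher. Igf2bp3, which binds fetal growth transcripts, had 16.9, 15.5, 25.5, 16.8 and 21.6 CPM in KO, at least 634-fold higher, with little spread between mice. Gldn, an adhesion protein gene of the node of Ranvier, was at least 391-fold higher (12.1 ± 3.74 CPM in KO, SD, n = 5) and Tm4sf20, a tetraspanin-like membrane protein gene, at least 381-fold higher (11.1 ± 5.55 CPM in KO, SD, n = 5). Sult2a1 and Sult2a2 are close paralogs whose reads may be split between them.

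The promoters of 3 genes with no count in WT and of 1 gene that fell show how unlike these genes are in sequence. Each line gives the 250 bases before the annotated start, 5′ to 3′ on the gene's strand, from RefSeq on GRCm38.p6, with each CG dinucleotide in capitals.
Igf2bp3 (chr6:49214955-49215204, minus strand, silent in WT): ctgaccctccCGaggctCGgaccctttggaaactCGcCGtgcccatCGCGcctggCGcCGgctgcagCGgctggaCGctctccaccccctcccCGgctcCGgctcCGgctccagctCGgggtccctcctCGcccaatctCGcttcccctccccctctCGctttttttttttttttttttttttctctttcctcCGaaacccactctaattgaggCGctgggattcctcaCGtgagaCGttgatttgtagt
Gldn (chr9:54286236-54286485, plus strand, silent in WT): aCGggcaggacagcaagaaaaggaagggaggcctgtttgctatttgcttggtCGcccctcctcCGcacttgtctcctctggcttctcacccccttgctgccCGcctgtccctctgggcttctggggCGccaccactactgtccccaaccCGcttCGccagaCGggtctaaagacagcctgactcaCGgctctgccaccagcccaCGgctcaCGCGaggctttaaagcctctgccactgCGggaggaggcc
Adh6a (chr3:138313036-138313285, plus strand, silent in WT): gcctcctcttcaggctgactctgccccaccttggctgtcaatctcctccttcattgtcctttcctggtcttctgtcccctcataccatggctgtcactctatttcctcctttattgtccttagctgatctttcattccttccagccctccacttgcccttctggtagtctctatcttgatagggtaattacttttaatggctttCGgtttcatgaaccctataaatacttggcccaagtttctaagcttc
Mup7 (chr4:60070476-60070725, minus strand, high in WT): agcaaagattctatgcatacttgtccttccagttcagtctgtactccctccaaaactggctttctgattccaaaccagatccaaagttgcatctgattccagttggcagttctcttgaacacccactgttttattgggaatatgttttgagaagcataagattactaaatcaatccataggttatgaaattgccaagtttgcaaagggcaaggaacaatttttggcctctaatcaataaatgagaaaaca
The dinucleotide CG, which reads the same on both strands, occurred 21 times in the Igf2bp3 window, 13 times in that of Gldn, 1 time in that of Adh6a and not at all in that of Mup7. Of the 32851 windows in the table, 16.3% had at least as many as Igf2bp3, 31.5% at least as many as Gldn and 92.1% at least as many as Adh6a. These genes were picked after their values were seen. The windows describe 4 genes: the table holds a window for 31 of the 53 silent genes (58.5%) and for 74.1% of the genes tested, too few for a count over the set.

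Genes that pattern the embryo rose together. Of 39 Hox genes, 26 passed the filter on low counts, of which 22 were called higher and none lower, against 11.1% and 4.89% of all genes tested, and 18 of the 22 kept the call in all leave-one-out fits. A gene that is at 0 in WT passes the filter only through its KO or later levels, so these counts are a description and not a share of the family; 4 Hox genes (Hoxb1, Hoxd1, Hoxd11 and Hoxd12) had no count in any of the 10 libraries. Summed over the family, WT libraries had 2.20 to 3.35 CPM and KO libraries 49.5 to 78.4 CPM. Hoxa10, a posterior Hox gene, had no count in WT and 11.7, 10.2, 13.6, 9.85 and 12.1 CPM in KO, at least 380-fold higher. Hoxa13 followed with 6.74, 3.89, 9.41, 3.53 and 4.65 CPM in KO, at least 192-fold higher. Hoxc10 had 5.11 to 5.44 CPM in 4 KO livers and 2.37 CPM in replicate 8, and its reads may include those of the overlapping Hoxc5.

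Of 102 developmental transcription factors outside the Hox clusters, 54 were tested, 45 were called higher and none lower, against 11.1% of all genes called higher, and 39 of the 45 kept the call in all leave-one-out fits. Of the 102, 72 had no count in WT, so the limit stated for the Hox counts holds here too. They span neural, skeletal, cardiac and limb regulators, such as Pax6, Sox2, Nkx2-2, Gata3, Twist1 and Tfap2b, and 14 members had no count in the 10 libraries. With genes at 0 in WT placed at their lower bound, the median log2 change was 3.98 here and 4.47 over the Hox genes. The members with the highest levels were those that WT liver also expresses. Hand2, a cardiac and limb regulator, rose from 4.02 ± 1.13 to 18.4 ± 3.20 CPM (SD, n = 5), and Tbx2, a T-box repressor, from 2.06 ± 0.411 to 7.28 ± 1.82 CPM (SD, n = 5). Hand2 overlaps the antisense transcript Hand2os1, and the strand setting of the counting is not given in the sources used here.

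**Figure D2:**
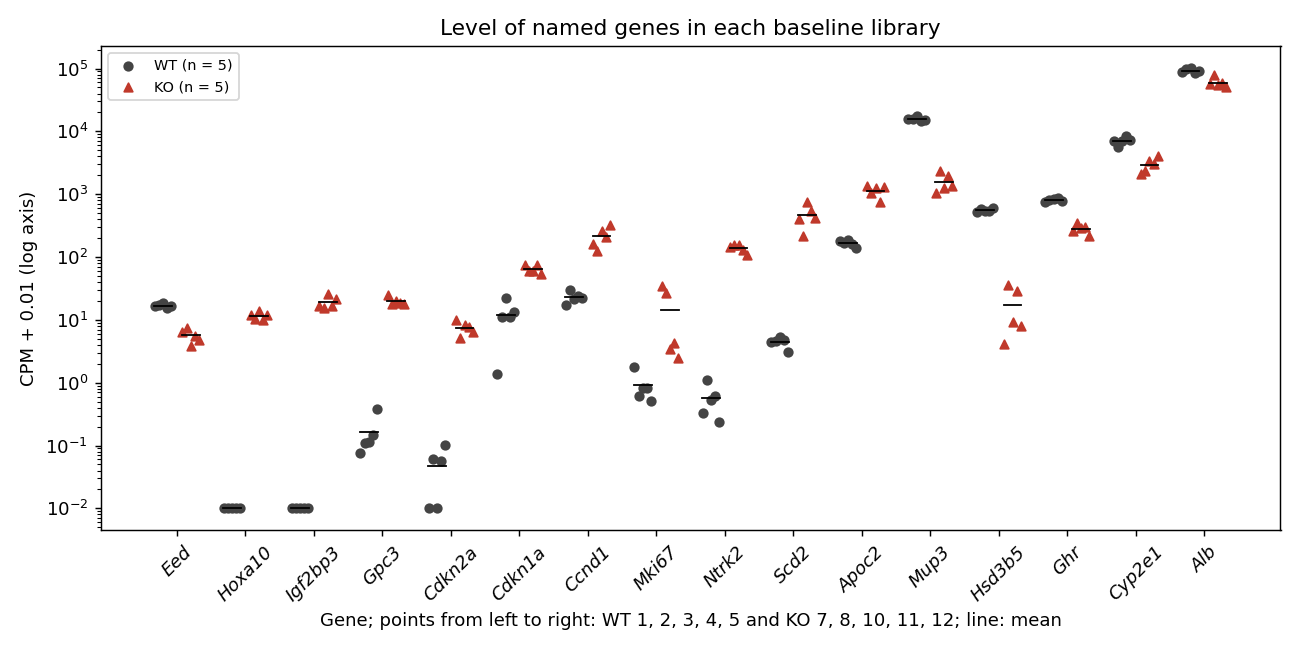
Level of 16 genes in each baseline library, on a log axis of CPM plus 0.01. Grey circles are the 5 WT and red triangles the 5 KO libraries, ordered by replicate number, and lines are group means. Hoxa10 and Igf2bp3 are at 0 in all WT, Mki67 is spread among KO mice, and Alb is the highest in both groups.

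Fetal growth genes rose in part. Of 19 oncofetal genes 15 were tested, 7 were called higher and none lower, against 11.1% of all genes called higher, and 6 of the 7 kept the call in all leave-one-out fits. Of the 19, 6 had no count in WT, so the limit stated for the Hox counts holds for these too. The median log2 change of the 15 was 2.08. Gpc3, a cell surface proteoglycan of fetal liver, had 0.065, 0.1, 0.103, 0.138 and 0.367 CPM in WT and 24.7, 17.96, 20.3, 18.3 and 17.9 CPM in KO, a log2 change of 6.91 ± 0.69 (SE). Every KO library was far above every WT library. Igf2bp2, of the same RNA-binding family as Igf2bp3, had 0.524 ± 0.284 CPM in WT and 5.06 ± 0.799 CPM in KO (SD, n = 5). Afp, the fetal albumin homologue, was not called: WT had 0.260 to 0.826 CPM and KO 0.552 to 1.41 CPM, with a log2 change of 1.15 ± 1.04 (SE) and an adjusted p of 0.487 in edgeR's quasi-likelihood test. In the fit of the 10 baseline libraries it was called higher, at 0.0328.

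Inhibitors of cyclin-dependent kinases rose beside cyclin D1. Of 7 inhibitor genes 4 were called higher, against 11.1% of all genes, namely Cdkn1a, Cdkn1c, Cdkn2a and Cdkn2b. All 4 kept the call in the 10 leave-one-out fits. Cdkn2a encodes p16 and p19ARF from overlapping exons, which a gene count cannot separate. It had 0, 0.05, 0, 0.0459 and 0.0917 CPM in WT and 9.89, 5.16, 8.21, 7.60 and 6.34 CPM in KO, a log2 change of 7.37 ± 0.78 (SE), with an adjusted p of 3.10e-06 in edgeR's quasi-likelihood test. Cdkn1a, encoding p21, had 1.37, 11.05, 21.97, 11.1 and 13.4 CPM in WT and 75.9, 60.01, 59.1, 74.8 and 54.0 CPM in KO. The WT values were uneven, with replicate 1 lowest, yet no KO value was near them. Cdkn2b, the neighbour of Cdkn2a encoding p15, rose from 0.226 ± 0.147 to 2.96 ± 1.11 CPM (SD, n = 5). Ccnd1, the G1 cyclin, had 17.5, 29.9, 21.6, 23.6 and 22.1 CPM in WT and 164, 123, 258, 206 and 327 CPM in KO, a log2 change of 3.23 ± 0.77 (SE).

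Mitotic genes were higher in all KO mice but by unequal amounts. In 28 of 33 genes of the mitosis list every KO library lay above every WT library, against 15.6% of all genes. The list summed to 25.7, 17.2, 18.1, 18.8 and 17.1 CPM in WT and to 349, 195, 106, 157 and 79.7 CPM in KO replicates 7, 8, 10, 11 and 12. KO replicate 7 was the highest and replicate 12 the lowest of the KO mice. In the 20-library fit, whose spread includes the livers after PHx, 5 of the 33 were called higher (15.2%, near the 11.1% of all genes). In the fit of the 10 baseline libraries 29 of the 29 tested were called higher, against 21.4% of all genes there. Mki67, a proliferation marker, had 0.505 to 1.76 CPM in WT and 34.6, 26.5, 3.38, 4.28 and 2.49 CPM in KO. Ccnb1, the mitotic cyclin, had 0.0459 to 0.195 CPM in WT and 9.23, 5.96, 4.14, 5.28 and 2.39 CPM in KO. Its call in the 20-library fit was lost in all 10 leave-one-out fits, with an adjusted p up to 0.103 without WT replicate 4, in edgeR's quasi-likelihood test. Those of Ccna2 and of the kinase gene Plk1 were lost in 9 and 7 of them, with adjusted p up to 0.0853 without WT replicate 4 and up to 0.0803 without WT replicate 3.

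For DNA replication genes the count depended on the fit. Of 34, none was called higher and 1 lower in the 20-library fit, against 11.1% and 4.89% of all genes. In the fit of the 10 baseline libraries 14 of 33 were called higher and 3 lower, against 21.4% and 18% of all genes there. The fall was that of Mcm10, which loads replication proteins, with 85.6, 80.9, 159, 64.1 and 84.3 CPM in WT and 7.27, 37.5, 8.48, 17.3 and 14.3 CPM in KO. The groups did not overlap, but the call was lost in 6 of the 10 leave-one-out fits, with an adjusted p up to 0.0972 without KO replicate 7, and under library size alone (0.0571), both in edgeR's quasi-likelihood test. Among 18 target genes of p53, 7 were called higher and none lower, against 11.1% and 4.89% of all genes. All 7 kept the call without any 1 mouse. Phlda3, an inhibitor of Akt, rose from 0.529 ± 0.418 to 6.71 ± 2.29 CPM (SD, n = 5), and Zmat3, an RNA-binding protein gene, from 5.38 ± 0.800 to 10.4 ± 1.95 CPM (SD, n = 5). Cdkn1a counts in this list and among the inhibitors.

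Many falls were in genes that male mouse liver expresses more than female. Of 37 male-biased genes tested, 26 were called lower and none higher, against 4.89% and 11.1% of all genes, with a median log2 change of -1.97. Under library size alone the median was -1.51 and 21 of the 26 kept the call. In all leave-one-out fits 20 of the 26 kept it. Many of the 26 belong to the family of major urinary protein genes, so they are not independent of each other. The 103 falls that passed both checks held 19 male-biased genes, and 22 of the 103 were major urinary protein (Mup) genes or pseudogenes, which encode pheromone carriers and are nearly identical in sequence. Reads that map to a single place may be split unevenly within this family. Its sum was taken as a share of all counts, which is itself scaling by library size and uses no TMM factor. The 21 Mup genes took 7.07, 5.66, 6.11, 6.63 and 6.61% of all counts in WT and 1.76, 2.59, 1.196, 1.29 and 1.16% in KO. No KO library reached the lowest WT library.

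Within the family, Mup3 had 14787 to 17492 CPM in WT and 1054 to 2308 CPM in KO, a log2 change of -3.32 ± 0.34 (SE). Mup7 had 10470 to 17038 CPM in WT and 346 to 2081 CPM in KO, and Mup17, the most abundant in WT, had means of 29258 and 4598 CPM. Mup19 and Mup12 fell further at lower levels, from 531 ± 209 to 15.8 ± 17.3 CPM and from 364 ± 96.2 to 17.9 ± 9.24 CPM (SD, n = 5). Hsd3b5, a male-specific steroid dehydrogenase gene, had 521, 576, 549, 531 and 612 CPM in WT and 4.05, 36.0, 9.21, 29.3 and 7.98 CPM in KO, a log2 change of -5.01 ± 1.21 (SE). The WT mice were close to each other, and all KO mice were below 40 CPM. Elovl3, a fatty acid elongase gene, fell from 890 ± 327 to 54.8 ± 35.4 CPM (SD, n = 5), and Serpina1e, an antitrypsin paralog, from 13409 ± 2063 to 2423 ± 1222 CPM (SD, n = 5). Slco1a1, an organic anion transporter gene, fell from 793 ± 76.4 to 90.5 ± 46.2 CPM (SD, n = 5), and its call was lost without KO replicate 7 alone (adjusted p 0.0567 in edgeR's quasi-likelihood test).

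Female-biased genes moved the other way in part. Of 25 tested, 10 were called higher and none lower, against 11.1% and 4.89% of all genes. Of the 10, 6 kept the call in all leave-one-out fits. The median log2 change of the 25 was 1.47. Of the 31 listed, 3 had no count in WT, so the limit stated for the Hox counts holds for these. Ntrk2, a neurotrophin receptor gene, had 0.325, 1.1, 0.515, 0.596 and 0.229 CPM in WT and 143, 157, 154, 128 and 106 CPM in KO, a log2 change of 7.94 ± 0.73 (SE). Rtn4, a reticulon gene, rose from 49.6 ± 7.95 to 137 ± 7.11 CPM (SD, n = 5). Cyp2b9, a female-predominant cytochrome P450 gene, had 0 to 0.300 CPM in WT and 1.36, 3.89, 20.1, 6.23 and 25.7 CPM in KO, with replicates 10 and 12 highest. Xist, made from the inactive X chromosome of female cells, had at most 0.183 CPM in any of the 10 libraries. Of 16 genes of growth hormone and STAT5 signalling, which sets sex differences in rodent liver, 2 were called higher and 2 lower. That is 12.5% in each direction, near the 11.1% of all genes called higher and against the 4.89% called lower. In each direction 1 kept the call in all leave-one-out fits. Ghr, the growth hormone receptor gene, fell from 811 ± 54.5 to 284 ± 47.4 CPM (SD, n = 5), also under library size alone, and Socs3, a feedback inhibitor, rose from 6.22 ± 3.17 to 33.9 ± 23.4 CPM (SD, n = 5).

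Of the 103, 84 were outside the male-biased list, which does not hold every Mup gene. Among the 84 were Mup5, Mup6, Mup13, Mup16 and Mup18 and the 6 Mup pseudogenes of the 103. Fitm1, a lipid droplet protein gene, had 24.9, 24.4, 23.98, 23.1 and 21.7 CPM in WT and 0.232, 0.845, 0.931, 0.997 and 1.08 CPM in KO, a log2 change of -4.85 ± 0.54 (SE). Slc13a2, a dicarboxylate transporter gene, fell from 6.67 ± 2.91 to 0.342 ± 0.248 CPM (SD, n = 5). Acaa1b, a peroxisomal thiolase gene, fell from 1199 ± 193 to 459 ± 139 CPM (SD, n = 5), and Cyp2d9, a P450 gene that is in the male-biased list, from 1646 ± 74.4 to 786 ± 125 CPM (SD, n = 5). Others among the 103, chosen after their values were seen, were the acyl-CoA synthetase gene Acsl1 (1690 to 512 CPM), the cytokine receptor gene Lifr (545 to 117 CPM) and the sulfotransferase gene Sult2a8 (1103 to 121 CPM).

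Lists of general hepatocyte function lay a little below the median of all genes. The lists of hepatocyte transcription factors, secreted plasma proteins, urea cycle and amino acid catabolism, bile acids, sterol and fatty acid synthesis, fatty acid oxidation and glucose metabolism had medians from -0.46 to -0.23 on the log2 scale, which turned to between 0.02 and 0.24 under library size alone, the shift of all genes. Relative to the median of all genes they lay at -0.43 to -0.20 under TMM scaling and at -0.43 to -0.21 under library size alone. Of 32 xenobiotic P450 genes 3 were called higher (9.4%, near the 11.1% of all genes) and 6 lower (18.8%, against 4.89%). In all leave-one-out fits 3 of the rises and 4 of the falls were kept. The median of the 32 was -0.62 under TMM scaling and -0.18 under library size alone. Alb, which encodes albumin, had 56456, 78144, 54098, 59072 and 51203 CPM in KO and 84231 to 102215 CPM in WT, a log2 change of -0.63 ± 0.28 (SE) that was not called in the 20-library fit but was in that of the 10 baseline libraries (adjusted p 0.0135 in edgeR's quasi-likelihood test). As a share of all counts Alb was 7.07 ± 0.832% in WT and 6.36 ± 1.16% in KO (SD, n = 5), and there the groups overlapped. Of 18 hepatocyte transcription factor genes, 6 were called lower and none higher, against 4.89% and 11.1% of all genes. Of the 6, 2 kept the call without any 1 mouse, and none kept it under library size alone. Among these, Cebpa had 455 ± 92.6 CPM in WT and 247 ± 42.2 CPM in KO (SD, n = 5), and its call was lost in 4 leave-one-out fits, with an adjusted p up to 0.0870 without KO replicate 7. The bile acid receptor gene Nr1h4 had 130 ± 23.4 and 57.7 ± 9.22 CPM (SD, n = 5) and an adjusted p of 0.0512 without KO replicate 7, and under library size alone the values were 0.155 for Cebpa and 0.135 for Nr1h4, in edgeR's quasi-likelihood test.

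Single metabolic genes stood out from these lists. Arg1, the urea cycle arginase gene, had 1593 to 2062 CPM in WT and 477, 669, 616, 796 and 864 CPM in KO. Its call was lost without KO replicate 7 alone (adjusted p 0.0733 in edgeR's quasi-likelihood test). Cyp2e1, a P450 gene of central hepatocytes, had 5690 to 8545 CPM in WT and 2128 to 4034 CPM in KO, but the call was lost in 7 leave-one-out fits, with an adjusted p up to 0.11 without KO replicate 7. Pklr, the liver pyruvate kinase gene, at 203 ± 63.3 CPM in WT and 96.1 ± 24.1 CPM in KO (SD, n = 5), was called lower without any 1 mouse but not under library size alone (adjusted p 0.0966 in edgeR's quasi-likelihood test). Pkm, the pyruvate kinase gene of most other tissues, rose from 14.05 ± 2.41 to 31.5 ± 2.76 CPM (SD, n = 5). Of the 3 P450 genes called higher, Cyp2b10 had 0.826 to 16.3 CPM in WT and 51.9 to 227 CPM in KO, and Cyp2c55 rose from 24.2 ± 4.08 to 276 ± 76.6 CPM (SD, n = 5). Of 23 bile acid genes 4 were called higher and 3 lower, against 11.1% and 4.89% of all genes, and 3 of the rises but none of the falls kept the call in all leave-one-out fits. The efflux pump gene Abcc4 rose from 1.61 ± 0.239 to 5.55 ± 1.04 CPM and the sterol exporter gene Abcg5 from 52.0 ± 5.94 to 113 ± 31.6 CPM (SD, n = 5), with some reads of Abcg5 open to assignment to its overlapping neighbour Abcg8.

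**Figure D3:**
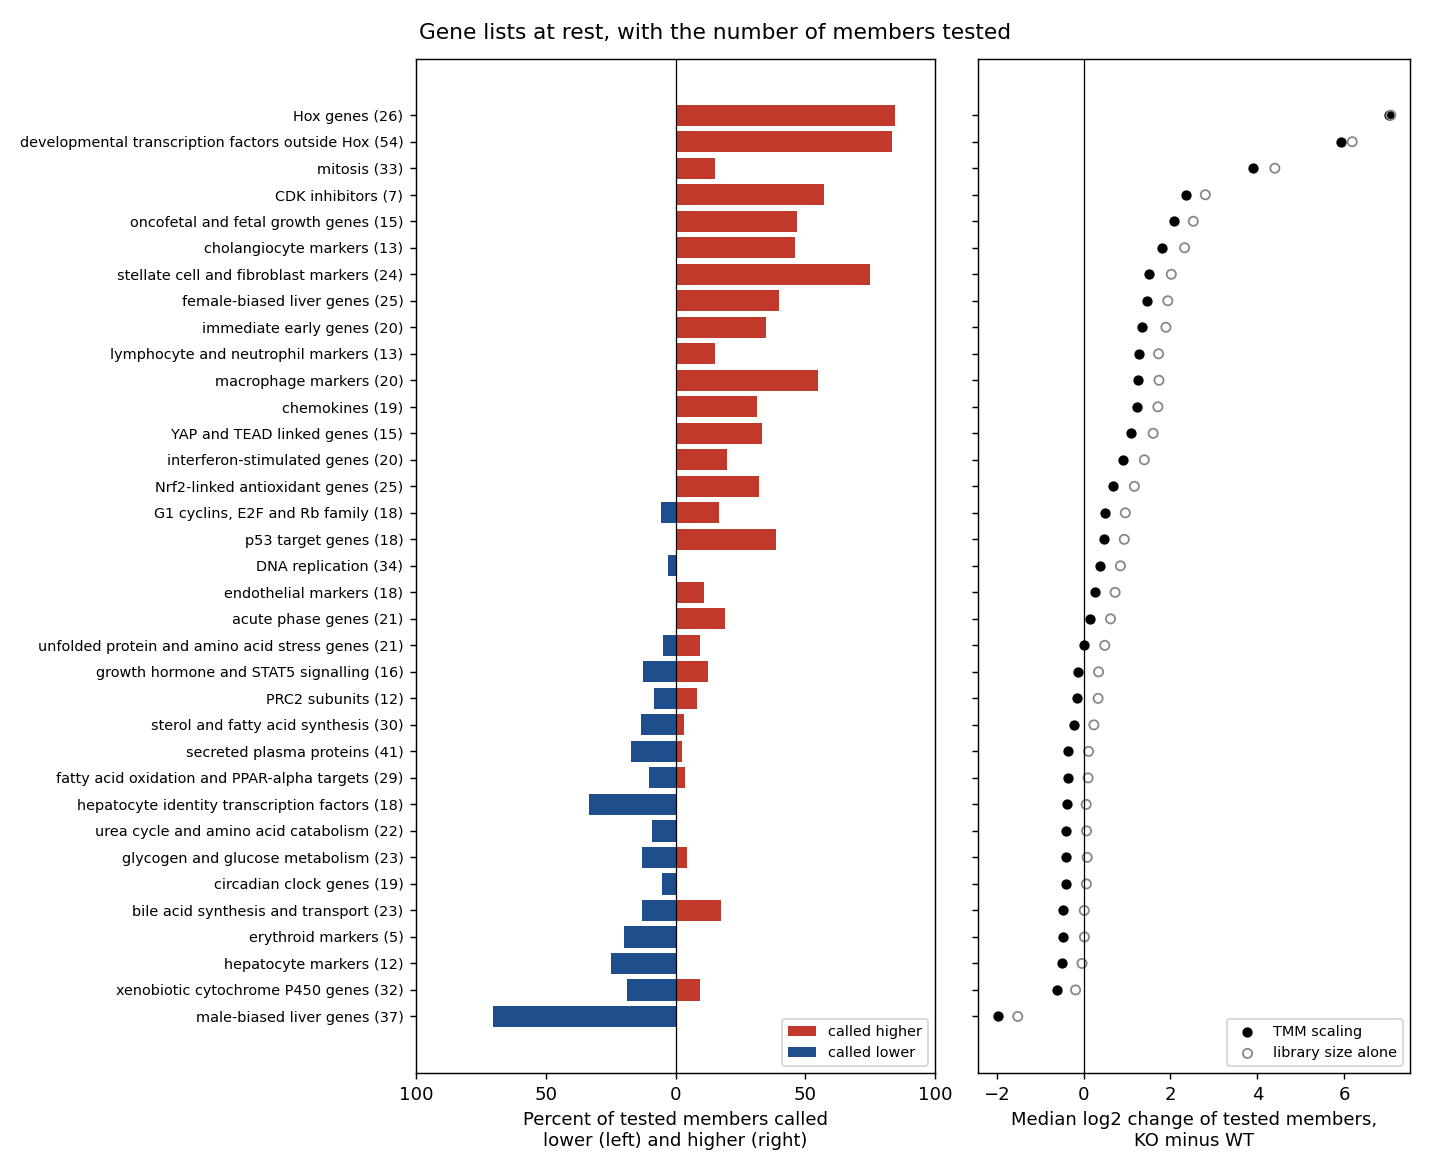
Left, percent of the tested members of each gene list called lower (blue, to the left) and higher (red, to the right) in KO, with the number tested in brackets. Right, the median log2 change of the same members under TMM scaling (filled) and library size alone (open). Lists of hepatocyte function lie within 1 of 0 under both scalings, male-biased genes lie below, and the Hox median rests on fitted values against WT groups at 0 (4.47 with those genes at their lower bound).

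The largest rises in CPM were in genes that WT liver already expressed. Apoc2, a cofactor of lipoprotein lipase, had 179, 164, 187, 164 and 139 CPM in WT and 1340, 1063, 1241, 741 and 1290 CPM in KO, a log2 change of 2.77 ± 0.36 (SE). Apoa4, an apolipoprotein of intestine and liver, had 60.9 to 117 CPM in WT and 697, 428, 432, 363 and 1192 CPM in KO. It was the 1 of 41 plasma protein genes called higher, while 7 were called lower, against 4.89% of all genes, of which 2 kept the call in all leave-one-out fits. Ly6e, a membrane protein gene induced by interferon, rose from 211 ± 27.6 to 854 ± 117 CPM, and Ndrg1, a stress-responsive gene, from 31.4 ± 10.2 to 289 ± 59.6 CPM (SD, n = 5). Scd2, a stearoyl-CoA desaturase gene of fetal liver and brain, had 3.03 to 5.35 CPM in WT and 399, 216, 747, 545 and 414 CPM in KO, a log2 change of 6.71 ± 0.70 (SE). Gstm3, a glutathione transferase gene, rose from 79.7 ± 9.96 to 576 ± 187 CPM (SD, n = 5). It was 1 of 8 called higher among 25 antioxidant genes linked to Nrf2, against 11.1% of all genes. None of the 25 was called lower, and 7 of the 8 kept the call in all leave-one-out fits. Gpx3, a secreted glutathione peroxidase gene, was another of the 8, at 1.51 to 3.76 CPM in WT and 139, 52.9, 54.5, 21.4 and 46.8 CPM in KO.

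Some inflammatory genes rose, by amounts that varied among KO mice. Of 21 acute phase genes 4 were called higher and none lower, against 11.1% of all genes called higher, 3 of the 4 kept the call in all leave-one-out fits, and the median log2 change of the list was 0.15. Saa2, a serum amyloid gene, had 5.64 to 22.8 CPM in WT and 120, 288, 33.5, 37.1 and 34.6 CPM in KO. Saa1 had 19.3 to 63.8 CPM in WT and 51.8 to 428 CPM in KO, which overlapped, and its call was lost in 6 leave-one-out fits, with an adjusted p up to 0.172 without KO replicate 8. Orm2, an orosomucoid gene, rose from 9.31 ± 3.43 to 58.4 ± 25.5 CPM, and the iron-binding lipocalin gene Lcn2 from 5.05 ± 4.30 to 51.2 ± 42.3 CPM (SD, n = 5). Of 19 chemokine genes 6 were called higher and none lower, against the same 11.1%, and 4 of the 6 kept the call in all leave-one-out fits. Cxcl14 had 0.845 to 1.29 CPM in WT and 85.9, 50.6, 18.5, 28.9 and 16.1 CPM in KO, and replicates 7 and 8 were the highest, as they were for Saa2. Of 20 interferon-stimulated genes 4 were called higher, of which 3 kept the call in all leave-one-out fits, and 12 lay above WT without overlap, against 11.1% and 15.6% of all genes. Of these Irf7, an interferon regulator, rose from 23.97 ± 4.87 to 50.4 ± 8.72 CPM (SD, n = 5). Among 15 genes linked to YAP and TEAD, 5 were called higher and none lower, against 11.1% and 4.89% of all genes. All 5 kept the call without any 1 mouse. Ccn1, a secreted matricellular protein gene, had 6.02 to 60.8 CPM in WT and 82.0 to 225 CPM in KO, and the receptor kinase gene Axl rose from 13.5 ± 2.54 to 36.2 ± 6.03 CPM (SD, n = 5).

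Markers of stellate cells, macrophages and, in part, cholangiocytes were higher beside all of these. Of 24 stellate cell and fibroblast markers 18 were called higher and none lower, against 11.1% of all genes called higher, and 15 of the 18 kept the call in all leave-one-out fits. The list summed to 233 to 373 CPM in WT and 618 to 885 CPM in KO. Col3a1, a fibrillar collagen gene, had 18.8 to 36.0 CPM in WT and 139, 82.4, 81.4, 68.9 and 56.0 CPM in KO. The proteoglycan gene Dcn rose from 109 ± 23.4 to 245 ± 24.9 CPM and the matricellular gene Sparc from 46.8 ± 5.98 to 89.1 ± 18.7 CPM (SD, n = 5). Col1a1 had 44.6 CPM in KO replicate 7, 11.03 to 14.3 CPM in the other KO and 2.84 to 7.80 CPM in WT. Of 20 macrophage markers 11 were called higher and none lower, against 11.1% and 4.89% of all genes, 9 of the 11 in all leave-one-out fits. The sum of the 20 ran from 266 to 444 CPM in WT and from 699 to 903 CPM in KO. Among them C1qa, a complement gene of macrophages, rose from 34.5 ± 9.35 to 79.96 ± 8.18 CPM and the lysozyme gene Lyz2 from 39.9 ± 10.8 to 120 ± 27.3 CPM (SD, n = 5). The list members Clec4f, Vsig4, Marco, Timd4, Cd5l and Adgre1 were not called in the 20-library fit. In the fit of the 10 baseline libraries 19 of the 20 markers were called higher, against 21.4% of all genes there.

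Of 13 cholangiocyte markers tested 6 were called higher and none lower, against 11.1% and 4.89% of all genes, 4 of the 6 in all leave-one-out fits. The sum of the list ran from 45.5 to 93.4 CPM in WT and from 143 to 501 CPM in KO, highest in replicate 7. In the fit of the 10 baseline libraries 11 of 12 were called higher, against 21.4% of all genes there. Bicc1, an RNA-binding protein gene, rose from 2.05 ± 0.196 to 27.4 ± 5.20 CPM (SD, n = 5), while the duct keratin genes Krt19 and Krt7 were not called in the 20-library fit, with 0.412 to 0.975 and 0.183 to 0.750 CPM in WT and 1.56 to 3.43 and 0.517 to 1.97 CPM in KO. Epcam was not called there either, at 0.321 to 1.89 CPM in WT and 1.83 to 3.25 CPM in KO. In the fit of the 10 baseline libraries all 3 were called higher, with adjusted p of 0.000660, 0.0389 and 0.0104 in edgeR's quasi-likelihood test. Spp1, encoding osteopontin, had 18.99 to 50.9 CPM in WT and 305, 182, 90.0, 72.2 and 36.5 CPM in KO, and its call was lost in 5 leave-one-out fits, with an adjusted p up to 0.0746 without KO replicate 7. Of 18 endothelial markers 2 were called higher, a share equal to the 11.1% of all genes, and 1 of them was Flt4, which encodes a lymphatic growth factor receptor and rose from 16.4 ± 1.89 to 41.4 ± 3.23 CPM (SD, n = 5). Their sum ran from 444 to 512 CPM in WT and from 539 to 661 CPM in KO. Of 13 lymphocyte and neutrophil markers 2 were called higher (15.4%, near the 11.1% of all genes), both lost when 1 mouse or another was left out. Of 5 erythroid markers 1, Alas2, was called lower, against 4.89% of all genes, a call lost without KO replicate 7 (adjusted p 0.0567 in edgeR's quasi-likelihood test). The 12 hepatocyte markers, the tissue's own, summed to 144979 to 164547 CPM in WT and 88655 to 116220 CPM in KO. That difference depends on the scaling: the median log2 change of the 12 was -0.50 under TMM scaling and -0.04 under library size alone. Of the 12, 3 were called lower, against 4.89% of all genes, and none of the 3 under library size alone. Pancreatic acinar markers had at most 0.734 CPM in sum in any library, and 6 of the 10 had no count. Whether more non-hepatocyte cells or more RNA per cell lies behind the other marker lists was not tested, and neither was their part in the results above.

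**Figure D4:**
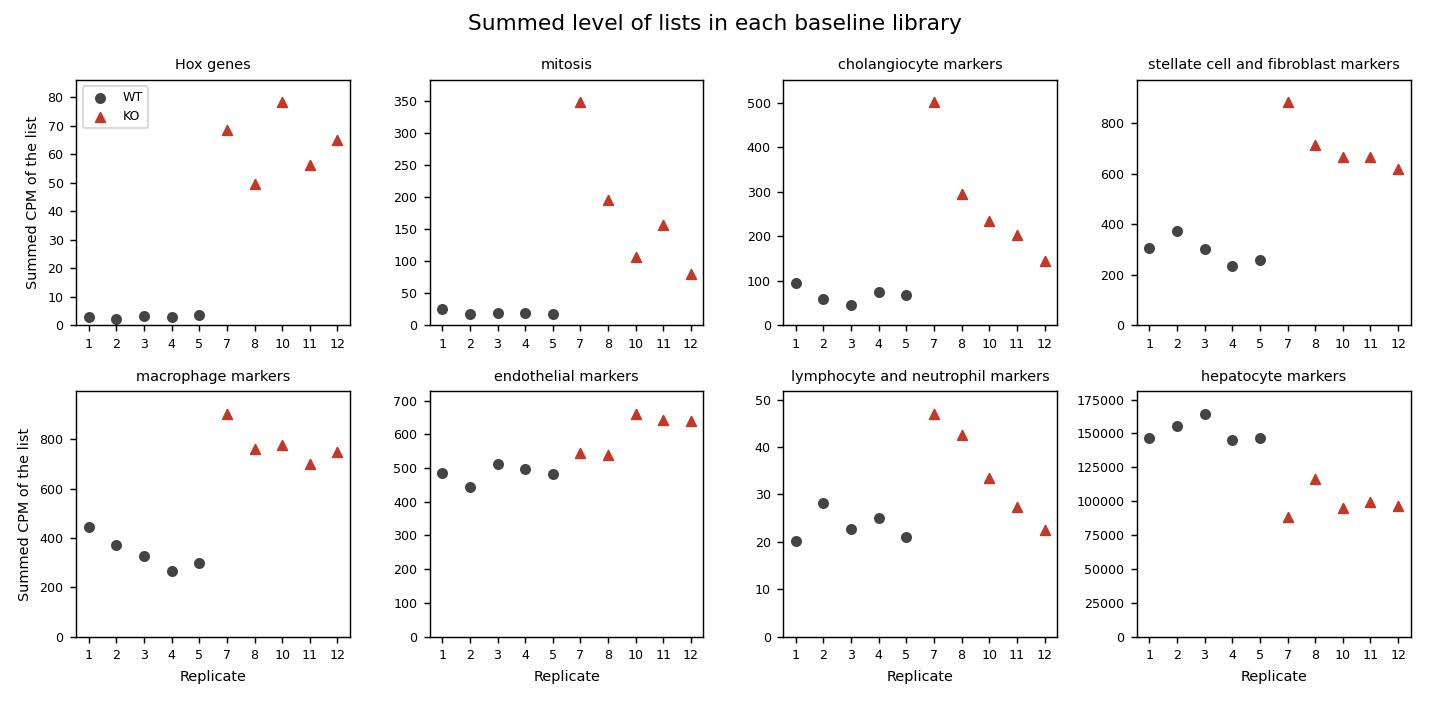
Summed CPM of 8 gene lists in each of the 10 baseline libraries, WT as grey circles and KO as red triangles, with the y axis from 0. In TMM-scaled CPM, Hox, mitosis, cholangiocyte, stellate, macrophage and endothelial sums are higher in KO and hepatocyte sums lower, each without overlap between the genotypes. The hepatocyte difference depends on that scaling: the median log2 change of the list was -0.50 with it and -0.04 under library size alone. Lymphocyte and neutrophil sums overlap. KO replicate 7 is highest for mitosis, cholangiocyte, stellate, macrophage and lymphocyte lists.

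In the Hox list KO replicate 8 had the lowest sum and replicate 10 the highest, whereas replicate 12 was lowest for the mitosis and cholangiocyte lists. Cyp4a14, a PPAR-alpha target, was not called in the 20-library fit (adjusted p 0.0351 in edgeR's quasi-likelihood test on the 10 baseline libraries) and ran from 96.2 to 1556 CPM in KO against 64.2 to 297 CPM in WT. Ddx3y, a gene of the Y chromosome, was not called either: it had 61.9 to 75.9 CPM in WT, 70.4 and 71.6 CPM in KO replicates 7 and 8, and 32.5, 17.9 and 14.2 CPM in KO replicates 10, 11 and 12. Eif2s3y, also on the Y chromosome, was called lower (adjusted p 0.0205 in edgeR's quasi-likelihood test). It had 46.4 to 53.1 CPM in WT and 20.5 to 38.8 CPM in KO, and its leave-one-out fits are not given here. Uty and Kdm5d, of the same chromosome, were not called.

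The same contrast was available in the lobes taken after PHx, and the difference between both KO effects was tested in the 20-library fit. It was called for 57 of 14661 genes (0.389%), 24 with a higher and 33 with a lower log2 change after PHx, and the count fell to between 22 and 38 without single baseline mice. That fit takes the 20 libraries as independent, although each mouse gave a library at rest and another after PHx. With the mouse as a term, in the 18 libraries of the 9 mice whose number stands in both titles, 7 genes were called, 5 of them among the 57, and the same 18 libraries without that term gave 36. Among the genes described above, Gldn had a log2 change of 11.29 at rest and 5.08 after PHx, Apoc2 of 2.77 and 0.54, and Orm2 of 2.65 and 0.14. Saa1 and Saa2 were higher at rest (1.96 and 2.84) and lower after PHx (-2.26 and -2.28), where both were called. Slc13a2 went from -4.27 to 1.92, which was not called after PHx. The fitted value of Gldn at rest is against a WT group at 0. None of these 6 differences was called with the mouse as a term, where adjusted p ran from 0.0712 for Gldn to 0.286 for Saa1 in edgeR's quasi-likelihood test. The lobes at rest and after PHx also differ.

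**Figure D5:**
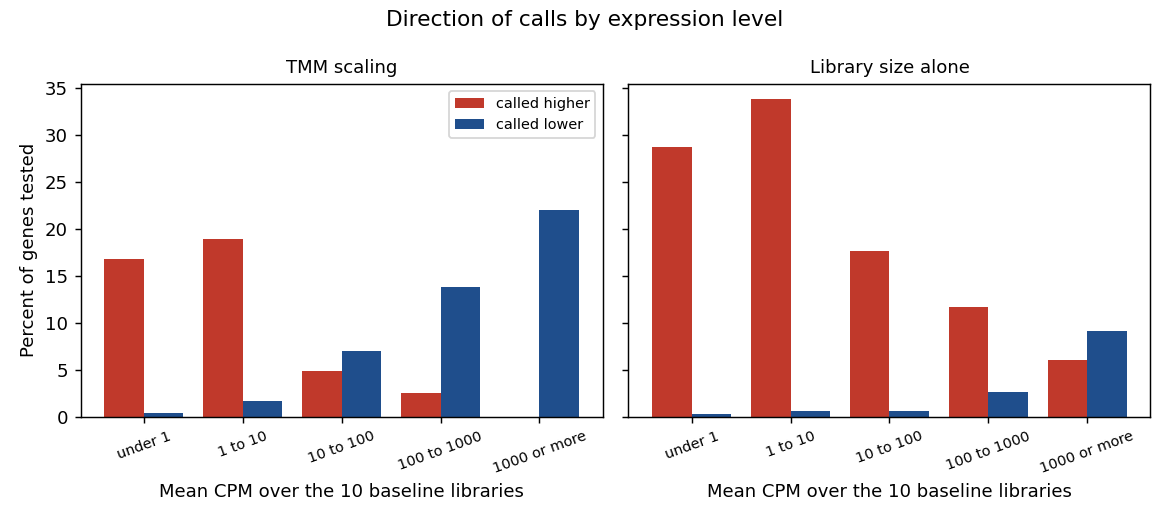
Percent of genes tested that were called higher (red) or lower (blue) in KO, by mean CPM over the 10 baseline libraries, with TMM scaling on the left and library size alone on the right. Calls higher are most frequent below 10 CPM under both scalings, and calls lower rise with the level.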

How the data were processed

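Poly(A) RNA of the 20 liver samples was sequenced, and the authors deposited unnormalised gene counts under Ensembl identifiers, a table for each library. Per the design text in the series record, RNA with an integrity number above 8 went into TruSeq libraries (1000 ng), and read quality was assessed by FastQC 0.11.5, fastp 0.20.0 did the trimming, and reads were aligned to mm10, where reads mapping to a single place were counted. The submitters' processing notes name Trimmomatic 0.36 instead of fastp. The aligner, counter, strand setting and annotation release are not given in the sources used here. Symbols and coordinates came from GENCODE M21 (GRCm38), which matched 46091 of 46603 identifiers.

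Tests used edgeR 4.0.16 in R 4.3.3 (two-sided quasi-likelihood test, TMM, filterByExpr), with 1 fit of 4 group means over all 20 libraries and Benjamini-Hochberg adjustment over the 14661 genes tested. On simulated data the test recovered 85.5% of 200 genes changed by a log2 of 2, with 6 false calls. The 200 were split evenly between rises and falls, among genes with a mean of at least 1 CPM, with all other genes unchanged. The real calls were more numerous and uneven in direction, so the simulation does not test the choice of scaling. Alternatives were RLE factors, library size alone, DESeq2 1.42.0, no filter, the 10 baseline libraries alone, a mean for each genotype and time, each baseline mouse left out and, for the difference between rest and PHx, the mouse as a block, added after seeing the data. WT baseline replicate 1 has no mouse number in its title; it was numbered in accession order, and it and WT replicate 1 after PHx stay out of the block fit. The 28 gene lists and 8 marker lists came from general knowledge, and they, the members and the rules were chosen with earlier results of these data known. Genes named are 9 fixed genes, the called protein-coding genes with the 6 highest and 6 lowest log2 changes (at least 5 CPM), the 6 largest rises and falls in CPM, and up to 3 called members of each list by level; those that added little or lost their call easily are given in counts only. Krt19, Krt7, Epcam, Mki67, Col1a1, Lcn2, Cdkn2b, Cyp4a14, Ddx3y, Eif2s3y, Uty, Kdm5d, Dbp, Gm42418 and Xist were added after their values were seen. A group at 0 was set to a floor of 3 counts over the group. Such floors and intervals allow for counting error only.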

Additional observations from a re-analysis of the deposited data

Results flagged for a closer look

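In groups of 5, a highest or lowest library whose gap to its neighbour took more than 0.71 of the group's range was marked. This happened in 11 of 162 groups over the named genes, and chance marks about 1 in 20. In WT, replicate 1 was high for Mki67 (1.76 CPM against 0.505 to 0.826), Mup19 (895 CPM against 368 to 503) and Spp1 (50.9 CPM against 18.99 to 24.2). WT replicate 3 was high for Mcm10 (159 CPM against 64.1 to 85.6) and Cxcl14 (1.29 CPM against 0.845 to 0.963), and WT replicate 4 for Gstm3 (97.2 CPM against 72.3 to 77.0) and Lcn2 (12.7 CPM against 2.47 to 3.53). In KO, replicate 7 was high for Gpx3 (139 CPM against 21.4 to 54.5) and Col1a1 (44.6 CPM against 11.03 to 14.3) and low for Fitm1 (0.232 CPM against 0.845 to 1.08), and replicate 8 was low for Hoxc10 (2.37 CPM against 5.11 to 5.44).

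In the fit of group means, without a mouse term, the KO effect differed between the resting lobes and those after PHx for 6 named genes. The difference, after PHx minus at rest on the log2 scale, was -6.21 ± 1.12 (SE) for Gldn (adjusted p 0.0264), 6.20 ± 1.12 for Slc13a2 (0.0176), -2.23 ± 0.48 for Apoc2 (0.0454), -4.22 ± 0.88 for Saa1 (0.0418), -5.13 ± 0.94 for Saa2 (0.0176) and -2.51 ± 0.54 for Orm2 (0.0454), all in edgeR's quasi-likelihood test. In a fit with the mouse as a block (18 libraries of 9 mice) the same differences were -6.51, 6.64, -2.27, -3.78, -4.47 and -2.27 in this order, with adjusted p of 0.0712, 0.134, 0.0948, 0.286, 0.233 and 0.276 in edgeR's quasi-likelihood test, so none was called.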

How the results depend on the processing

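For KO against WT at rest, no paired analysis was possible because the groups are different mice that share no replicate number. Genes called higher (1631) became 3521 under library size alone and 2846 with only the 10 baseline libraries, and those called lower (717) became 113, 2396, 345 without the filter and 1270 with group means split by collection time. Leaving out 1 mouse gave 1231 to 1495 genes higher and 313 to 722 lower; the latter was 313 without KO replicate 7, 417 without KO replicate 10, 423 without WT replicate 4, 434 without WT replicate 3 and 470 without KO replicate 11. The 57 genes whose KO effect differed after PHx, whose alternatives were chosen after seeing the data, became 376 with DESeq2, 22 to 38 without 1 baseline mouse, 7 with the mouse as a replicate block in 18 libraries and 36 in those libraries without the block. Library size alone raised the median of all genes by 0.48, and with it these list medians turned positive: PRC2 subunits 0.34, hepatocyte transcription factors 0.0608, plasma proteins 0.12, urea cycle 0.0693, bile acids 0.017, sterol and fatty acid synthesis 0.24, fatty acid oxidation 0.10, glucose metabolism 0.0846, growth hormone signalling 0.35, clock genes 0.0651 and erythroid markers 0.0208. The median of unfolded protein and amino acid stress genes (0.02) became -0.13 with only the 10 baseline libraries, -0.27 without KO replicate 8 and -0.23 without KO replicate 12, and ran from -0.27 to 0.18 over the fits without 1 mouse. Suz12 turned to 0.15 under library size alone. Of the 79 named genes called, 74 kept the call under library size alone and 67 without KO replicate 7. Of the 12 named genes not called, 9 were called with only the 10 baseline libraries and 4 each with library size alone and DESeq2.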
